A study of Bos taurus with 8 samples.

Results

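The genes described here encode the granule proteins, the superoxide-producing oxidase, the surface receptors and the adhesion molecules of neutrophils. They were taken by symbol from a list of 33 genes, of which 29 had a probe among the 16966 gene symbols of the array (66 of 43653 probes with a sequence). MMP8, AZU1, PRTN3 and FPR1 had no probe under those symbols. RNA came from fresh blood of 5 female Holstein Friesian cows and was read on 8 single-colour arrays, 4 per group. In the CPE group the blood was kept with 10 µg/ml of a phenolic extract of cowpea leaf for 30 min at 37 °C under 5% CO2. In the CONTROL group it was kept for the same time and under the same conditions without the extract. All cows, whichever group their blood entered, were at the end of a 60-day course of a probiotic, and no group without it was compared. The series text says that RNA was pooled within groups, so the arrays of 1 group may repeat the same RNA. Errors and p-values then describe arrays, not animals. CPE and CONTROL arrays sat on different slides, and slide and treatment cannot be told apart in any comparison.

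Neutrophils are short-lived phagocytes that reach an infected site by rolling on selectins, adhering through integrins and following chemoattractants. They then kill microbes with proteins released from granules and with superoxide made by the NADPH oxidase. Granule proteins are made while the cells mature in the bone marrow, so transcripts of the primary granules are scarce in mature blood neutrophils, whereas those of S100 proteins and of several receptors stay abundant. In cattle the cathelicidins form a family of several genes, and neutrophils store their products in large granules particular to ruminants. In whole blood RNA, fewer cells of a type and less RNA per cell cannot be told apart.

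Large areas of every array were dim, and these areas differed between arrays. A spot was called lit on an array when the raw signal around it came within 1.5 log2 units of that array's bright areas, and dark otherwise. Lit spots were 43.2% to 50.2% of the spots on CPE arrays and 31.9% to 40.8% on CONTROL arrays, and 13028 of 43803 spots (29.7%) were lit on all 8. Signals are given as processed intensity, or as relative signal, meaning a multiple of the 75th percentile of lit probes on the same array. This percentile was 397 to 748 intensity units in CPE and 580.4 to 759 in CONTROL, and 12 to 73 spots per array were marked as outliers by the scanner software. Of the 66 neutrophil probes, 20 were lit on all 8 arrays, and 13 of these, from 10 genes, were also well above background on all 8 and were tested. Among the 46 others, 21 were lit on no array. Counted over all 66 probes, 23 were lit on more CPE than CONTROL arrays and 1 on more CONTROL arrays. The same count was not made over all spots, of which more were lit on CPE arrays too.

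The probes are 60 bases long, and their sequences show where a reading can be checked against a second probe of the same gene. ITGB2 and ELANE each had a pair of probes that shared 54 bases, shifted by 6, and S100A12 had a pair that shared 29. The first 30 bases of each probe are shown, 5′ to 3′, as the deposited table gives them, except that bases 31 to 60 are shown for the S100A12 probe A_73_115208. Capitals mark the stretch shared by the pair.
ITGB2 A_73_104443: ATGTGTGAACTTCTCAGGGTATGAAGTTAC
ITGB2 A_73_P250781: ttatttATGTGTGAACTTCTCAGGGTATGA
ELANE A_73_P046786: TCCCATGAAGCATCACTCAGCATCTGACAC
ELANE A_73_P319741: ggccctTCCCATGAAGCATCACTCAGCATC
S100A12 A_73_115208: cCCTGAGGCTGCCTTACCCGAGGGAAGAGA
S100A12 A_73_P050466: CCTGAGGCTGCCTTACCCGAGGGAAGAGAg

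Within the ITGB2 and ELANE pairs the readings parted by large factors on some arrays and not on others. ITGB2 A_73_104443 read 23451, 2138, 10417 and 15593 intensity units on CPE arrays 1 to 4, against 14240, 3101, 14999 and 548 on CONTROL arrays 1 to 4. ITGB2 A_73_P250781, with 54 of its 60 bases in common, read 55, 8846, 10403 and 31 on the CPE arrays, against 90, 54, 35 and 58 on the CONTROL arrays. The second probe thus read high on CPE arrays 2 and 3 alone, and its spot was dark on all 8 arrays. On CPE array 3 the ITGB2 probes read nearly the same. The ELANE pair behaved in the same way at a lower signal. ELANE A_73_P046786 read 366, 99, 265 and 318 in CPE against 250, 225, 229 and 108 in CONTROL, and A_73_P319741 read 31, 259, 218 and 30 in CPE against 76, 59, 51 and 49 in CONTROL. For S100A12, the probe lit on all 8 arrays (A_73_P050466) read 42880 to 68581 in CPE and 51095 to 60662 in CONTROL. Its partner A_73_115208, dark on all 8 and with only 29 bases in common, read lower on every array, at 7343 to 38788 in CPE and 309 to 356 in CONTROL. A reading from a dark spot is therefore given below as a value only, with no comparison between the groups.

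**Figure D1:**
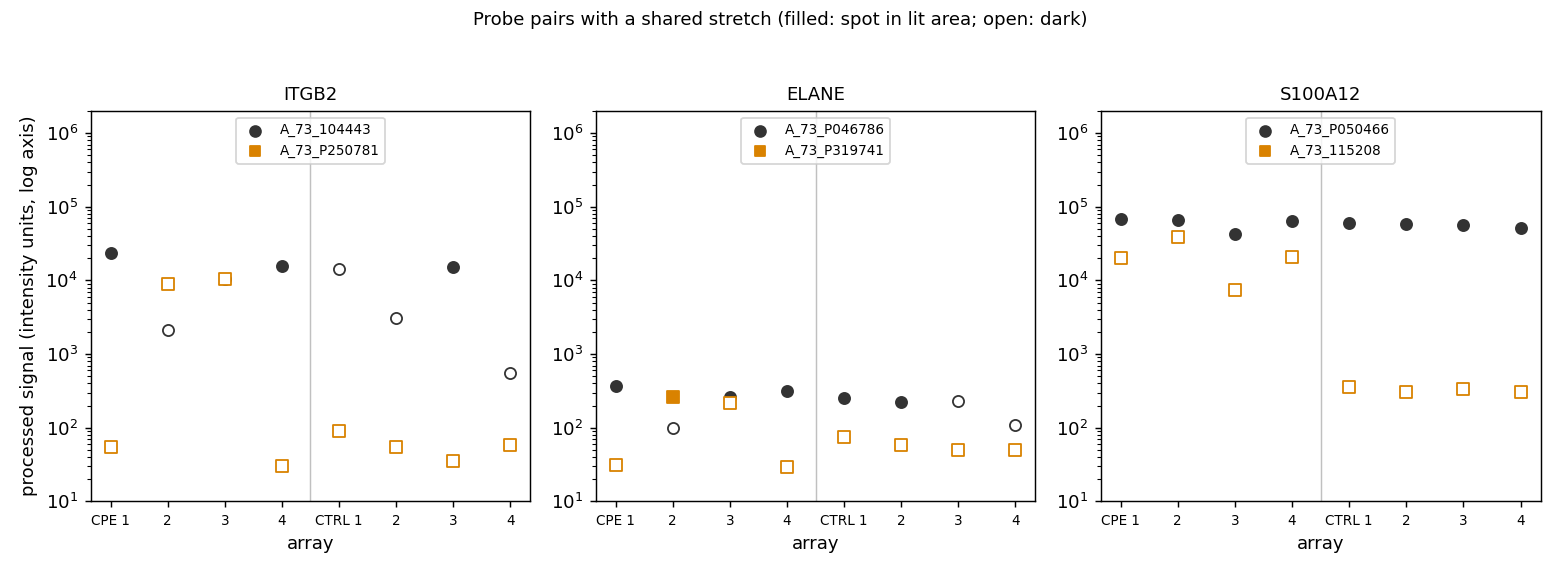
Processed signal (intensity units, log axis) of probe pairs that share part of their sequence, for each of the 4 CPE and 4 CONTROL arrays; filled symbols are spots in the lit area and open symbols dark spots. The S100A12 pair lies between 42880 and 68581 at the lit probe on every array, while the dark probe reads 309 to 356 on the CONTROL arrays.

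In the lit area, transcripts of the receptors CSF3R and TREM1, of the selectin ligand SELPLG and of the histone-modifying enzyme PADI4 were 1.79-fold to 2.07-fold lower in CPE than in CONTROL. BPI and S100A12 were 1.35-fold and 1.18-fold higher in CPE, and the oxidase subunit CYBB, LYZ and FCGR2B did not pass the test. The BPI call left out a CONTROL outlier spot that read above all CPE arrays, and S100A12 was called in only 8 of 22 other settings. Of the 13 probes tested, 7 passed (limma, adjusted p under 0.05 over all 7198 lit probes), which is 53.8% against 48.4% of all lit probes. By direction, 2 were higher and 5 lower, where 22.9% of all lit probes were higher and 25.5% lower. The groups did not overlap in 8 of the 13 probes, against 50.2% of all lit probes. Unadjusted, 8 of the 13 had a limma p under 0.05, a count that was not made over all lit probes and so has no share beside it. The median log2 change was −0.03 over the 13 probes and −0.004 over all lit probes, so neither the count nor the median set the neutrophil probes apart from the rest.

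**Figure D2:**
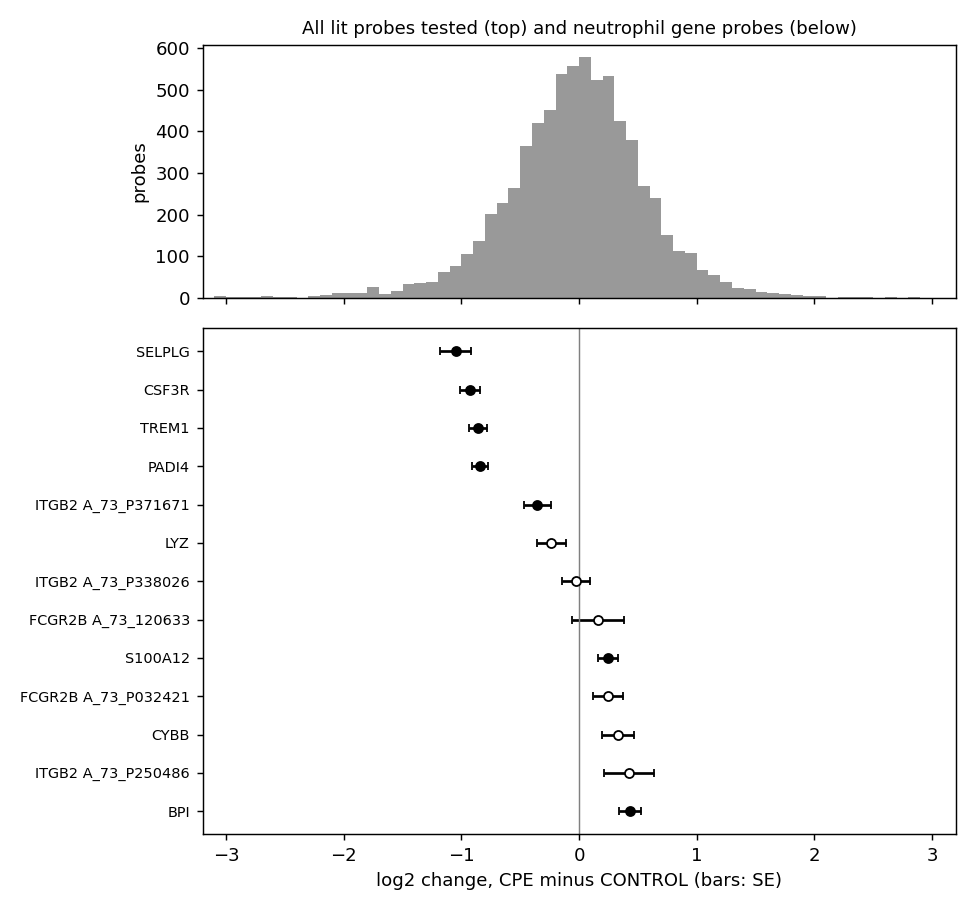
Log2 change, CPE minus CONTROL, of all 7198 lit probes tested (top, histogram) and of the 13 neutrophil gene probes (below, points with standard error bars; filled points have a limma adjusted p under 0.05). The 4 lowest probes lie between −1.05 and −0.84, and the highest, BPI, lies at 0.43.

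Among the surface receptors, CSF3R, the receptor of the growth factor G-CSF that drives neutrophil production, was lower in CPE. Its only probe (A_73_P093746, ENSBTAT00000017732) had relative signals of 9.41, 8.96, 7.69 and 9.38 in CPE, against 16.8, 16.5, 16.6 and 17.4 in CONTROL. All CPE arrays lay below all CONTROL arrays, with CPE array 3 the lowest. On the log2 scale CSF3R changed by −0.93 (SE 0.09, n = 4 each, limma adjusted p = 6.61e-05), a 1.901-fold lower level, and 6.02% of all lit probes had a change as low. TREM1, a receptor that amplifies inflammatory signals in neutrophils and monocytes, was lower by a similar factor. Its probe (A_73_105852, NM_206970) had relative signals of 10.6, 12.2, 11.8 and 11.3 in CPE, against 19.97, 20.01, 21.0 and 22.1 in CONTROL, and the groups lay far apart. This was a log2 change of −0.86 (SE 0.08, limma adjusted p = 5.82e-05), or 1.81-fold lower.

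FCGR2B, the inhibitory receptor for the constant part of IgG, which B cells also carry, gave no call at either lit probe in the fit as described. At A_73_120633 (NM_174539) the relative signals were 8.97, 7.69, 14.9 and 8.55 in CPE, against 9.05, 9.34 and 7.69 on CONTROL arrays 1, 2 and 4, the spot of CONTROL array 3 being an outlier that the fit left out. CPE array 3 stood above the rest, and the other values of the groups overlapped. The log2 changes were 0.16 (SE 0.22, adjusted p = 0.579) at this probe and 0.25 (SE 0.13, adjusted p = 0.135) at A_73_P032421. With local centring A_73_120633 passed in the lower direction (−0.23, adjusted p = 0.00772), and without CPE array 3 A_73_P032421 passed in the higher (0.33, adjusted p = 0.0332), so the calls depend on the setting. The third FCGR2B probe was dark on all 8 arrays and read 306, 17, 2641 and 22 intensity units in CPE, against 8 to 10 in CONTROL.

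Of the adhesion genes, SELPLG, which encodes the selectin ligand PSGL-1 on which leukocytes roll, had the largest change among the 13 tested probes. At A_73_P361146 (NM_001271160) its relative signals were 0.415, 0.341, 0.276 and 0.364 in CPE, against 0.665, 0.7003, 0.693 and 0.808 in CONTROL. Every CPE array lay below every CONTROL array. The log2 change was −1.05 (SE 0.13, limma adjusted p = 0.000304), or 2.07-fold lower, and 4.29% of all lit probes were as low. Its 2 other probes could not add to this. A_73_101287 was dark on 7 arrays and read 11, 1553, 282 and 14 units in CPE against 9 to 13 in CONTROL, and A_73_P041856, dark on all 8, read 17, 7, 208 and 7 in CPE against 219, 221, 89 and 9 in CONTROL.

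ITGB2, the beta subunit shared by the leukocyte integrins, gave 3 different answers at its 3 tested probes. At A_73_P371671 (NM_175781) the relative signals were 30.4, 31.8, 22.6 and 29.5 in CPE, against 35.8, 36.4, 36.4 and 36.1 in CONTROL, with no overlap and CPE array 3 lowest. The log2 change was −0.35 (SE 0.11, limma adjusted p = 0.0280), or 1.28-fold lower, and 25.4% of all lit probes were as low. Leaving out any 1 of the CONTROL arrays ended this call, with adjusted p-values of 0.0506 to 0.0667. At A_73_P338026 the change was −0.03 (SE 0.12, adjusted p = 0.878). At A_73_P250486 it was 0.42 (SE 0.21, adjusted p = 0.128), 0.22 without CONTROL array 4, and 0.27 with local centring, where it passed (adjusted p = 0.00809), with relative signals of 0.685, 0.513, 0.801 and 0.739 in CPE against 0.594, 0.552, 0.590 and 0.333 in CONTROL. No direction can be given for the gene as a whole. ITGAM, the alpha subunit that pairs with ITGB2 in the complement receptor Mac-1, had 3 probes and none lit on all 8 arrays, and its CPE readings ran from 4 to 112 units against 8 to 18 in CONTROL.

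**Figure D3:**
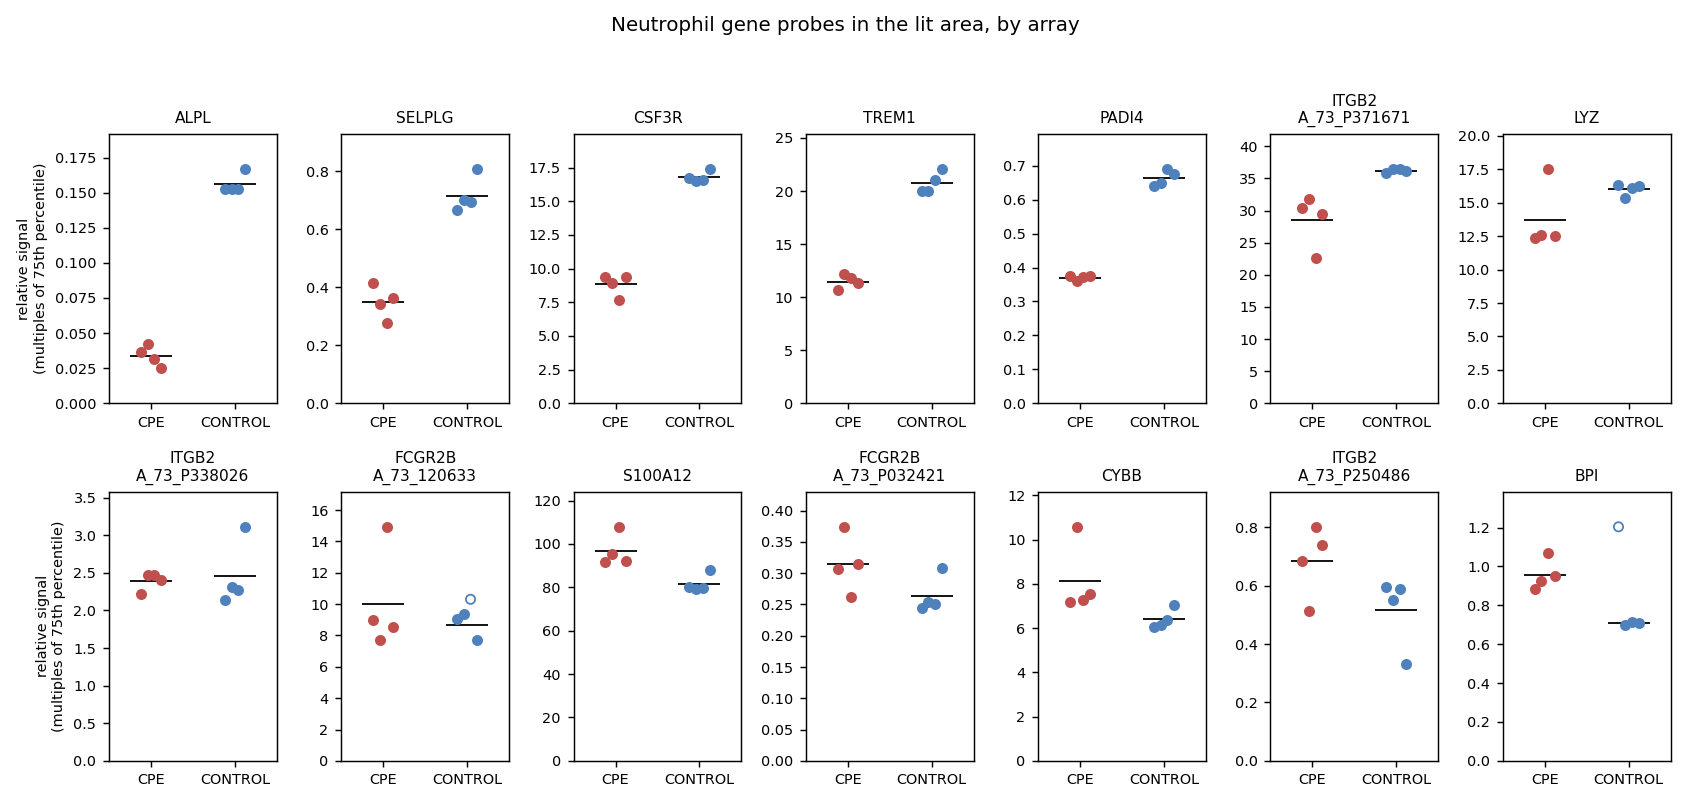
Relative signal (multiples of the array's 75th percentile of lit probes) of the 13 tested neutrophil probes and of ALPL on each CPE (left) and CONTROL (right) array, with group means as bars; open circles are outlier spots left out of the fit and each panel has its own axis. SELPLG, CSF3R, TREM1 and PADI4 show no overlap between the groups, and at BPI the outlier spot of CONTROL array 1, at 1.204, lies above all CPE arrays.

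The granule proteins were mostly out of reach of the test. BPI, the protein of the primary granules that binds bacterial lipopolysaccharide, was the only one called. Its probe (A_73_113676, NM_173895) had relative signals of 0.883, 0.926, 1.07 and 0.949 in CPE, against 0.698, 0.714 and 0.710 on CONTROL arrays 2 to 4. On CONTROL array 1 the spot was marked as an outlier, read 1.204, and was left out of the fit. The log2 change was 0.43 (SE 0.09, n = 4 in CPE and 3 in CONTROL, limma adjusted p = 0.00632), or 1.35-fold higher, and 18.9% of all lit probes were as high. With that spot counted, the groups would overlap. LYZ, a lysozyme gene, which in cattle belongs to a family of close copies, had relative signals of 12.4, 12.6, 17.5 and 12.5 in CPE, against 16.3, 15.4, 16.1 and 16.2 in CONTROL at A_73_P107931 (NM_001078159). CPE array 3 stood above and the other 3 CPE arrays below all CONTROL arrays. The change was −0.24 (SE 0.12, adjusted p = 0.136), and −0.36 without CPE array 3 (adjusted p = 0.00129), which passed. LYZ also passed with normexp background correction (−0.38, adjusted p = 0.0395) and with local centring (−0.34, adjusted p = 0.00019). It was called in 3 of 23 settings. Part of this probe, at least 20 bases, also occurs in a probe with another name or none, so signal of a copy cannot be told apart.

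ALPL, the alkaline phosphatase of neutrophil secretory vesicles, was dim in both groups. Its probe A_73_P108351, lit on all 8 arrays, read 27, 29, 12 and 17 intensity units in CPE, against 116, 111, 109 and 97 in CONTROL, without overlap. It was well above background on 1 of 4 CPE arrays and on all 4 CONTROL arrays, so it was not among the 13 tested probes. A fit that also took probes bright in 1 group would admit it only through the group in which it was high, and no fold or test is given for it. A second lit ALPL probe, A_73_P108006, was well above background on none of the 8 arrays, at 3 to 7 units in CPE and 8 to 10 in CONTROL.

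The cathelicidin genes CATHL1 to CATHL6, whose products are cut into antimicrobial peptides, could be read in the lit area only for CATHL2 and CATHL4, near background. CATHL2 and CATHL4 each had 2 probes lit on all 8 arrays, which read 9 to 21 and 3 to 14 units in CPE against 8 to 18 and 8 to 12 in CONTROL, and of these 4 probes only A_73_120001 of CATHL2 exceeded background clearly, on 1 CPE array. CATHL1, CATHL3 and CATHL5 were well above background on no array, but their spots were dark on at least 7 of the 8 arrays, so no level can be given for them. A single CATHL6 probe (A_73_116963), dark on all 8 arrays, was well above background on the 4 CPE arrays, at 34, 256, 159 and 35 units, against 8 to 10 in CONTROL. In the RefSeq gene table, CATHL4, CATHL1, CATHL3 and CATHL2 lie next to each other in this order on chromosome 22, as do CATHL6 and CATHL5.

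Most other granule genes rested on spots lit on some arrays only. Over the lit arrays alone, ELANE, the elastase of primary granules, had relative signals of 0.463 to 0.666 on 3 CPE arrays and 0.310 to 0.329 on 2 CONTROL arrays. LTF, the iron-binding lactoferrin of secondary granules, ran from 0.0819 to 0.531 on 3 CPE arrays and from 0.158 to 0.162 on 2 CONTROL arrays at A_73_116655. Its probe A_73_P379426 was lit on all 8 arrays but well above background on none, at 3 to 12 intensity units in CPE and 8 to 10 in CONTROL, and A_73_P467448, lit on 3 arrays of each group, exceeded background on 1 CPE array. PGLYRP1, which binds bacterial peptidoglycan, ran from 0.0959 to 0.113 on 4 CPE arrays and from 0.0558 to 0.0930 on 3 CONTROL arrays, and these values are descriptions with no test. The PGLYRP1 probe was well above background on all 4 CPE arrays but on only 1 CONTROL array. MPO, the myeloperoxidase of primary granules, read 5, 72, 24 and 7 units in CPE and 9 to 10 in CONTROL, all from dark spots. MMP9, a gelatinase of tertiary granules, read 221 to 457 units in CPE and 21 to 219 in CONTROL at its brightest probe (A_73_119412), lit on 1 array. The membrane-bound metalloprotease MMP25 read 937 to 3084 in CPE and 929 to 2203 in CONTROL, its spot being lit on CPE array 2 alone.

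Of the calcium-binding S100 proteins that fill the neutrophil cytoplasm, only S100A12 could be tested. Its relative signals at A_73_P050466 (NM_174651) were 91.7, 95.5, 108 and 92.3 in CPE, against 79.9, 79.4, 79.5 and 88.0 in CONTROL. The groups did not overlap, although CONTROL array 4 lay nearer to the CPE arrays than to the other CONTROL arrays. The log2 change was 0.24 (SE 0.08, limma adjusted p = 0.0395), or 1.18-fold higher, and 31.4% of all lit probes were as high. The direction turned with quantile normalisation (−0.08), and the call ended when any 1 of CPE arrays 1, 2 and 4 or CONTROL arrays 1, 2 and 3 was left out, with adjusted p-values of 0.0541 to 0.104. S100A8 and S100A9, which form the heterodimer calprotectin, read high on some arrays and near the floor on others. S100A8 read 11828, 29, 9828 and 87 units on the CPE arrays, against 11816, 9384, 11028 and 9 on the CONTROL arrays. S100A9 (A_73_110650) read 3327, 42, 5347 and 86 in CPE, against 5141, 4619, 5583 and 9 in CONTROL. Both were low on CPE arrays 2 and 4 and CONTROL array 4. The spot of S100A8 was lit on CPE array 1 alone, and that of S100A9 was dark on exactly those 3 arrays. Over the lit arrays alone, S100A9 had relative signals of 4.45 to 13.5 on 2 CPE arrays and 6.37 to 7.82 on 3 CONTROL arrays.

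For the oxidase, only CYBB, the catalytic membrane subunit gp91phox, could be tested. At A_73_P035616 (NM_174035) its relative signals were 7.17, 10.6, 7.28 and 7.55 in CPE, against 6.05, 6.15, 6.38 and 7.03 in CONTROL. All CPE arrays lay above all CONTROL arrays, CPE array 2 well above the others, but the log2 change of 0.33 did not pass (SE 0.13, limma adjusted p = 0.0680). Without CPE array 2 it was 0.20 (adjusted p = 0.0785). It passed in 3 of 23 settings, which were a limit of 1 log2 unit for lit spots (adjusted p = 0.0323), local centring (0.17, adjusted p = 0.00539) and leaving out CPE array 3 (adjusted p = 0.0470). The second CYBB probe was lit on the 4 CPE arrays and on no CONTROL array, and read 1064 to 3203 units in CPE against 10 to 731 in CONTROL. CYBA, the membrane partner of CYBB, and NCF1 and NCF4, cytosolic subunits that join it on activation, had no probe lit on all 8 arrays. NCF1 read 352, 3575, 6340 and 1903 units in CPE, against 62, 10, 8 and 9 in CONTROL, and its spot was lit on CPE array 2 alone. CYBA read 975, 1382, 6298 and 21 in CPE against 45, 18, 12 and 9 in CONTROL (A_73_106554), from a spot dark on all 8. NCF4 (A_73_107805) read 9822, 3511, 15849 and 3863 in CPE, against 4951, 3394, 4087 and 9 in CONTROL, its spot being lit on 2 CPE arrays.

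PADI4, the enzyme that converts arginine to citrulline in histones and is needed for extracellular traps, was lower in CPE, with the smallest standard error of the 13 probes. Its relative signals at A_73_P095646 (NM_001192173) were 0.374, 0.359, 0.372 and 0.376 in CPE, against 0.640, 0.650, 0.690 and 0.675 in CONTROL. The log2 change was −0.84 (SE 0.07, limma adjusted p = 3.43e-05), or 1.79-fold lower, and 7.47% of all lit probes were as low. Both other PADI4 probes were lit on CPE array 2 alone and read at most 20 units in CONTROL, against 5 to 897 and 78 to 126 in CPE.

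Of the 13 tested probes, those called with a change over 1.3-fold are shown so that their targets can be traced. Those of CSF3R, PADI4, SELPLG and BPI share no stretch of 15 bases or more with a probe of another gene, and their first 30 bases are given without capitals. For TREM1, bases 30 to 59 are shown, with capitals for the 20 bases it shares with a probe of AJUBA, a gene of cell junctions. Another 5 probes of other genes share at least 15 bases with it. Whether transcripts of these genes add to the TREM1 signal was not tested.
CSF3R A_73_P093746: tatctttgagcctctgcttgacttccctct
TREM1 A_73_105852: gcaacTAAGACCTGGCACAGCCAAAtaaat
SELPLG A_73_P361146: tatataggacaaacggaccctccagagatg
PADI4 A_73_P095646: tcagacaagaaactgagagaacacaattca
BPI A_73_113676: ttcttccaagggctaaggctgcagggacat

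The 4 falls stood under every lit-area setting tried. Over 23 settings the log2 change ran from −1.22 to −0.63 for SELPLG, from −1.101 to −0.84 for CSF3R, from −1.03 to −0.82 for TREM1 and from −1.01 to −0.59 for PADI4, and each was called in all 23. Several of these settings, such as another variance model or threshold, could alter the call but not the log2 change. BPI was called in 21 of 23 settings, with changes of 0.30 to 0.58. Every one of these settings left out its outlier spot on CONTROL array 1, so none tested the call with that spot counted. ITGB2 at A_73_P371671 was called in 14 of 22 settings and S100A12 in 8 of 22. As a description of their surroundings, the nearest lit spots well above background were taken on each array. Their median deviation from their mean over arrays was averaged per group. The CPE average minus the CONTROL average was −0.15 around SELPLG, −0.09 around CSF3R, 0.15 around TREM1, −0.09 around PADI4 and −0.15 around BPI, on the log2 scale. Without any scaling between arrays the median of all lit probes moved to −0.18, and 0 of the 13 neutrophil probes were then called higher and 4 lower. All lit probes tilted the same way in that setting, with 271 of 7198 called higher and 913 lower.

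**Figure D4:**
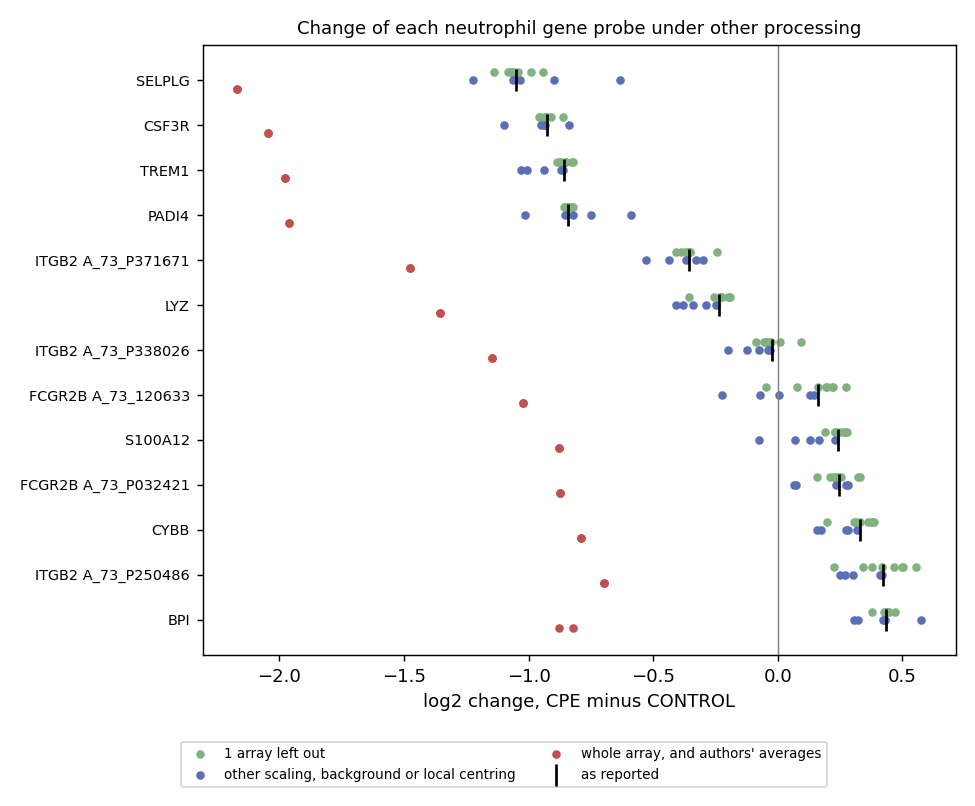
Log2 change, CPE minus CONTROL, of each tested neutrophil probe as reported (vertical bar), with 1 array left out, with other scaling, background correction or local centring in the lit area, and over the whole array or in the authors' averages. SELPLG, CSF3R, TREM1 and PADI4 lie between −1.22 and −0.59 under every lit-area setting, while all 13 probes lie below 0 over the whole array.

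The authors' deposited table of group averages, scaled over the whole array, gave another picture for the same genes. In it, 0 of the 20 neutrophil probes lit on all 8 arrays were higher in CPE, with a median log2 difference of −1.25 (−3.35 to −0.66). Of the 46 probes dark on at least 1 array, the authors' deposited table had 19 higher in CPE, with a median of −0.41 (−3.42 to 6.12). Over all 43653 probes of that table, lit and dark together, the median difference was −1.05, and 9328 were higher in CPE. The count was not made over all probes lit on all 8 arrays, so 0 of 20 has no like share beside it. In the authors' deposited table NCF1 differed by 6.12, S100A12 by 4.89 at its dark probe and by −0.88 at its lit probe, and CYBA by 4.29 at A_73_106554. For the 13 tested probes the fit in the lit area lay above the authors' deposited difference by 1.12 to 1.31, so BPI, S100A12, CYBB, FCGR2B and ITGB2 at A_73_P250486 were below 0 there.

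**Figure D5:**
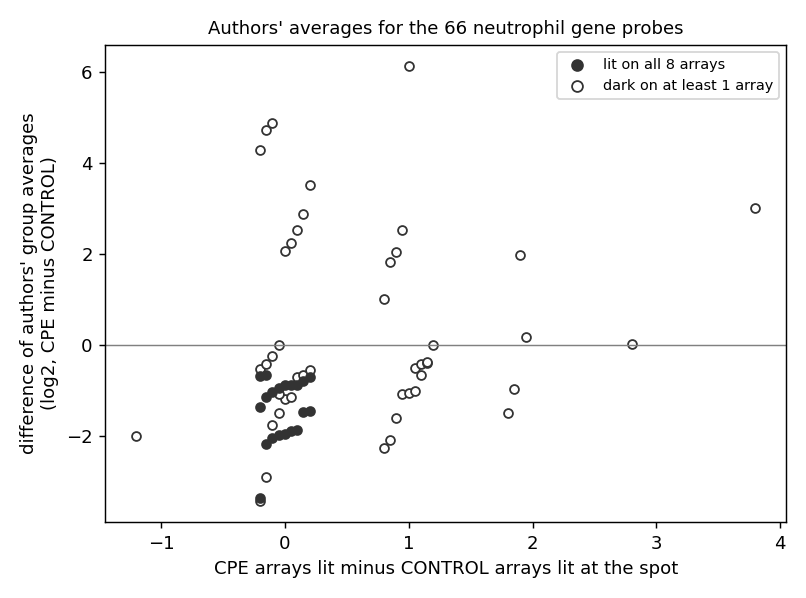
Difference of the authors' deposited group averages (log2, CPE minus CONTROL) for the 66 neutrophil gene probes, against the number of CPE arrays minus the number of CONTROL arrays on which the spot was lit (points spread sideways for legibility). The 20 probes lit on all 8 arrays lie between −3.35 and −0.66, and all values above 0 belong to the 46 probes dark on at least 1 array.

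Other genes of the same processes were read at 1 probe per gene, the brightest, and moved both ways. Their counts stand beside 22.9% of all lit probes called higher and 25.5% called lower. Among 7 tested partners and regulators of the oxidase, 4 rose, 1 fell and 2 did not pass (median log2 change 0.52). PRKCD, a kinase that phosphorylates the cytosolic subunits, rose by 0.98 (SE 0.20, limma adjusted p = 0.00429), and RAP1A, a small GTPase found with the oxidase membrane subunits, by 0.82 (SE 0.14). CAT, the hydrogen peroxide-degrading catalase, fell by 0.32 at its brightest probe, but its other lit probe read 0.99, so its direction depends on the probe. Among 11 other granule proteins tested, 1 rose, 2 fell and 8 did not pass (median −0.15). The cysteine protease CTSZ rose by 1.096 (SE 0.17), the chitinase-like CHI3L1 of secondary granules fell by 0.73 (SE 0.11) and the beta-defensin DEFB10 fell by 0.87 (SE 0.17). CTSG, the cathepsin G of primary granules, ARG1 and PTX3 were lit but at background on all 8 arrays.

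Of 10 tested receptors for chemoattractants, cytokines and microbial products, 4 fell, 1 rose and 5 did not pass (median 0.06), a share called near the 48.4% of all lit probes. CXCR2, the interleukin 8 receptor that guides neutrophils, fell by 0.99 (SE 0.19, limma adjusted p = 0.00256), and TLR4, which senses lipopolysaccharide, fell by 0.85 (SE 0.19). The leukotriene B4 receptor gene LTB4R rose by 0.61 (SE 0.17). Among 8 tested integrins and adhesion partners, none of them a selectin, 2 rose, 1 fell and 5 did not pass (median −0.11). ITGAL, the alpha subunit that pairs with ITGB2 in LFA-1, fell by 0.96 (SE 0.09, adjusted p = 6.07e-05). The cytoskeletal linkers TLN1 and VCL rose by 1.22 and 0.53, but the 4 lit probes of TLN1 read 1.22, 0.62, −0.64 and −0.94, each past the threshold. Of 12 genes of granule release, 4 rose, 3 fell and 5 did not pass (median 0.08). The vesicle GTPase RAB27A rose by 0.93 (SE 0.10), the SNARE protein STX4 rose by 1.02 (SE 0.28) at its brighter probe and read 0.02 at the other, and RAB3D, a GTPase of secretory granules, fell by 1.45 (SE 0.26). Of 2 myeloid transcription factors tested, CEBPE, needed for secondary granules, fell by 1.13 (SE 0.15) and IRF8 rose by 0.25 (SE 0.09).

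Markers of other blood cells moved in differing directions, and their part in the changes was not tested. Of 13 tested T cell markers 8 rose and 0 fell (median 0.55), where 22.9% of all lit probes were higher and 25.5% lower, and their summed relative signal was 99.4 to 123 in CPE against 70.6 to 74.9 in CONTROL. Of 6 B cell markers none passed either way, with sums of 39.0 to 46.6 in CPE and 40.5 to 43.9 in CONTROL, while the unused second probe of CD79A fell by 0.38. Of 4 NK cell markers 2 rose and 1 fell, with sums of 34.1 to 38.9 in CPE against 17.3 to 20.1 in CONTROL. GNLY alone made up 31.4 to 36.6 of these sums in CPE and 12.9 to 15.4 in CONTROL, while NKG7 fell by 0.79 and GZMB had a change of −0.08. Of 4 monocyte markers 1 rose and 2 fell, with sums of 54.6 to 70.4 in CPE against 55.6 to 60.8 in CONTROL. FCN1, which rose by 0.29, held 47.8 to 58.3 of these sums in CPE and 40.4 to 45.0 in CONTROL, while CSF1R fell by 0.74 and CX3CR1 by 0.75. ALOX15, a lipoxygenase of eosinophils and the only marker of eosinophils and basophils tested, fell by 1.45 (SE 0.09), and GATA2 was at background. The platelet chemokine PPBP rose by 1.46 (SE 0.13), and the red cell gene HBB did not pass (0.28, adjusted p = 0.139).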

How the data were processed

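The labels describe 8 arrays of bovine whole blood RNA, 4 per group. Per the submitters' processing notes and the file headers, the authors extracted spot intensity using Agilent Feature Extraction 10.10.1.1. In the deposited files, processed intensity is background-subtracted and detrended within each array, has a floor for low values and is not scaled between arrays. The deposited series table holds the authors' log2 averages per group, centred per probe. Each array has 45220 spots, of which 1417 control spots were left out. A local value, the 90th percentile of log2 raw median signal over the 61 nearest spots, marked a spot as lit when it was no more than 1.5 below the 90th percentile of all local values on that array. Probes lit and well above background on all 8 arrays were tested. Log2 processed signal minus the array's 75th percentile over lit probes was fitted with limma 3.58.1 in R 4.3.3 (two-sided, Benjamini-Hochberg over 7198 probes, threshold 0.05), and outlier spots were left out. The fit was also run on simulated data with independent noise. These had no dark areas, slide effect or repeated RNA, so the run cannot bear on those.

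The files hold no mean signal, so normexp (offset 50) used the median signal. The members, the gene lists and the lit area were chosen with earlier results of these data known. Every member was described, and up to 2 rises and 2 falls per further list, by size among those past the threshold. Some genes of these lists are counted but not reported here by name. Names were checked in the RefSeq table of assembly ARS-UCD2.0, where 32 of 33 symbols were found. Of the 66 probes, 61 carried a RefSeq accession, and all 61 matched. No positions are printed, because the array was annotated on UMD 3.1. The precision is limited by the 4 arrays per group.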

Additional observations from a re-analysis of the deposited data

Results flagged for a closer look

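In 4 of 24 groups of 4 arrays examined, 1 array lay apart from the other 3 by more than Dixon's critical value (the gap to the nearest array as a share of the group's range). Chance flags about 1 in 20 groups. CPE array 2 stood apart in CYBB, with a log2 level of 3.40 against 2.84 to 2.92 on the other CPE arrays (ratio 0.869). CONTROL array 4 stood apart in S100A12, at 6.46 against 6.31 to 6.32 (ratio 0.939). CPE array 3 stood apart in LYZ, at 4.13 against 3.63 to 3.65 (ratio 0.947). CONTROL array 4 stood apart in ITGB2 at A_73_P250486, at −1.59 against −0.86 to −0.75 (ratio 0.874).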

How the results depend on the processing

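Among the log2 changes of the 13 tested probes under other settings, 260 kept their direction and call, 23 lost a call, 9 gained one, 20 turned direction, and 7 of the authors' averages, which carry no test, moved beyond the replicate spread. The 7 calls among neutrophil probes became 4 without scaling and 4 with a minimum change of log2 0.5 (0 higher and 4 lower in each), and 11 with local centring (4 higher, 7 lower). The 3482 calls among all lit probes became 1184 without scaling (271 higher, 913 lower), 1872 with normexp, 5637 of 13006 without a filter on dim probes (1982 higher, 3655 lower), 5237 with local centring, 2241 at an adjusted p under 0.01 and 589 with the minimum change. Leaving out 1 array gave 5 to 10 neutrophil calls and 2861 to 4047 in all. Over the whole array 209 of 9668 probes were higher and 3470 lower. With the replicate number as a block, 6 neutrophil probes and 3430 in all were called. After the group means were taken off, arrays of the same number correlated at −0.12, −0.17, 0.29 and 0.41. Arrays of 1 group may repeat the same RNA, so these values cannot show whether the numbers pair the samples.

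Directions turned for S100A12 with quantile normalisation (−0.077), for FCGR2B at A_73_120633 with normexp (−0.071), local centring (−0.23), the replicate block (−0.047) and without CPE array 3 (−0.047), and for ITGB2 at A_73_P338026 with a limit of 1 log2 unit (0.0087), without CPE array 1 (0.0091) and without CONTROL array 4 (0.093). Over the whole array, changes were −0.82 for BPI, −1.02 and −0.88 for FCGR2B, −0.79 for CYBB, −0.88 for S100A12 and −0.70 for ITGB2 at A_73_P250486. In the authors' deposited table they were −0.88, −1.02, −0.87, −0.79, −0.88 and −0.70 in that order. With 1 array left out, FCGR2B at A_73_120633 ran from −0.047 to 0.27 and ITGB2 at A_73_P338026 from −0.087 to 0.093. The cause was not tested.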
